A study of Rattus norvegicus with 6 samples.

Results

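The genes of glycolysis, lactate exchange and pyruvate use were examined in rat vascular smooth muscle cells kept as a primary culture, which form the contractile layer of arteries and veins. A list of 38 gene symbols covers glucose transporters, the enzymes from hexokinase to pyruvate kinase, lactate dehydrogenases and transporters, the pyruvate carrier, pyruvate dehydrogenase with its kinases, a phosphoglucomutase and the transcription factor gene Hif1a. Members were the rows of the count files whose gene name is in the list, and 36 of the 38 symbols were found among the 30945 genes of the files; no row is named Pgk1 or Pfkfb1. RNA was sequenced from 6 libraries, 3 labelled negative control and 3 labelled siRNA_ANK, each made from 1.3 μg of RNA, and the series title speaks of cells deficient in ANK. A small interfering RNA lowers the messenger RNA it matches, and the protein ANK is encoded by Ankh. What the negative control was, the siRNA sequence, its dose and time, the vessel, the strain and age of the rats, and the origin of the replicates (separate animals, separate cultures or neither) are not stated in the labels. The p-values therefore measure the spread of these 6 libraries around their group means, and that spread may be technical.

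Glycolysis turns glucose into pyruvate in the cytosol and yields ATP and NADH. Its upper steps take up, phosphorylate and split the sugar, and its lower steps, from triosephosphate isomerase to pyruvate kinase, recover ATP. Pyruvate is either reduced to lactate and exported or carried into mitochondria, where pyruvate dehydrogenase turns it into acetyl-CoA. Many steps are served by several isoforms from different genes, which differ in tissue distribution and regulation. Smooth muscle of vessels is known to make much of its lactate in the presence of oxygen, and the hypoxia-inducible factor of which Hif1a encodes a subunit activates many of these genes.

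The libraries held 15641259 to 17441548 counts over genes. Levels are given as CPM, read counts of a gene scaled to a common library size with TMM factors, and per kilobase of gene length where genes are compared with each other. The groups were compared with edgeR's quasi-likelihood test over 13016 genes, and a gene is said to have risen or fallen in siRNA_ANK where its Benjamini-Hochberg adjusted p over all of these genes was under 0.05. Ankh, the gene the label names, was 338, 351 and 367 CPM where the negative control was given, against 84.8, 76.6 and 120 CPM in siRNA_ANK. All 3 siRNA_ANK values of Ankh lay below all 3 control values. On the first principal component over all genes tested, negative control replicate 2 and siRNA_ANK replicate 3 were the libraries nearest to the other group.

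Of the 36 members, 35 passed the filter on low counts and were tested; 8 rose and 13 fell in siRNA_ANK, and 14 did not pass the threshold. This is 60% of the members tested, where 40.1% of all genes tested were called, with 22.9% against 19.9% higher and 37.1% against 20.2% lower. The median log2 fold change was -0.07 over the members and 0.01 over all genes tested. For 25 of the 35 members (71.4%) the groups were apart, every library of the one above every library of the other, beside 51.1% of all genes tested. Changes of at least 2-fold were found for 4 members, Ldhb and Pdk4 among those that rose and Slc16a1 and Pdk3 among those that fell, where 7.15% of all genes tested were called at that size. Among the 1342 tested genes with at least 43.9 CPM per kilobase in the controls, the level of the 10th most abundant member, 61.5% were called, 20.3% higher and 41.1% lower. The members that fell were Slc2a1, Hk2, Tpi1, Gapdh, Pgam1, Pgam2, Eno1, Eno2, Pkm, Slc16a1, Slc16a3, Pdk3 and Hif1a, and those that rose were Hk1, Gpi, Pfkm, Pfkfb2, Pfkfb3, Ldhb, Pdk2 and Pdk4. Hexokinases and pyruvate dehydrogenase kinases thus had members on both sides.

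**Figure D1:**
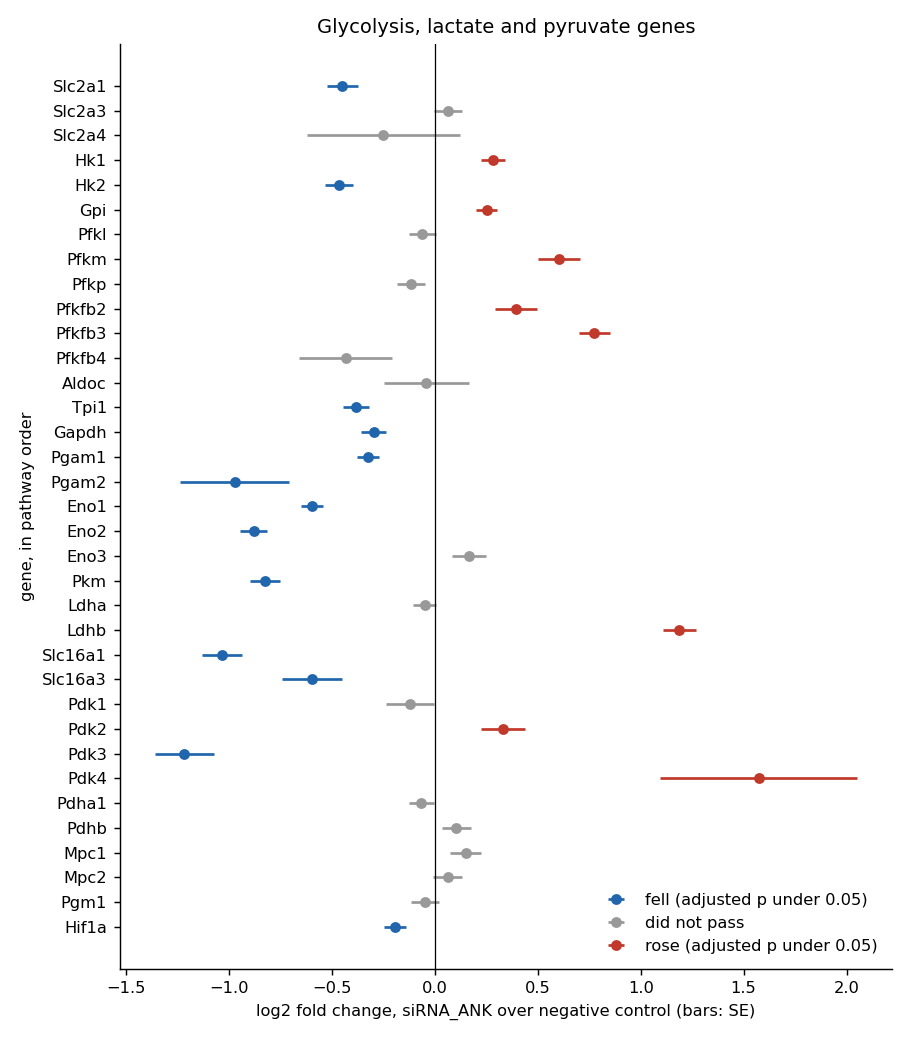
Log2 fold change of each of the 35 members tested, siRNA_ANK over negative control, in pathway order from glucose transporters to Hif1a; points are edgeR estimates from 3 libraries a group, bars are their SE, and colour gives the call. The estimates from Tpi1 to Pkm lie below 0 except for Eno3, and Ldhb and Pdk4 lie above 1.

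Each of the lower steps from triosephosphate isomerase to pyruvate kinase that has a named row had a gene that fell. Tpi1, triosephosphate isomerase, which interconverts the products of aldolase, was 119, 117 and 114 CPM in the controls against 82.1, 90.4 and 95.7 CPM in siRNA_ANK (log2 fold change -0.38 ± 0.06 (SE), edgeR adjusted p = 0.000227). Gapdh, the dehydrogenase that makes the NADH of the pathway and a common reference gene, was 548, 591 and 521 CPM and 442, 432 and 477 CPM (-0.30 ± 0.06, adjusted p = 0.00133). Pgam1, the main phosphoglycerate mutase, was 420.3, 401 and 420.4 CPM in the controls against 320.3, 323 and 349 CPM in siRNA_ANK (-0.32 ± 0.05, adjusted p = 0.000294). These changes were between 1.23-fold and 1.30-fold, and the groups did not overlap for any of the 3 genes. A test against a fold of 1.2 in place of 0 ended the calls of Tpi1 (edgeR adjusted p = 0.0524), Gapdh (0.361) and Pgam1 (0.184). Pgam2, the mutase of muscle, was low, at 2.67 ± 0.397 CPM (SD, n = 3) in the controls and 1.36 ± 0.299 CPM in siRNA_ANK (1.96-fold lower, adjusted p = 0.00942). Leaving out negative control replicate 1 ended that call (adjusted p = 0.0516).

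Eno1, Eno2 and Pkm had larger falls than Tpi1, Gapdh and Pgam1, a difference that was not tested. Eno1, the widely expressed enolase, was 902, 887 and 908 CPM in the controls against 570.0, 585 and 629 CPM in siRNA_ANK, 1.51-fold lower (log2 fold change -0.60 ± 0.05, adjusted p = 9.29e-07). Eno2, known as the neuronal enolase, was 173, 154 and 178 CPM against 93.3, 86.5 and 95.02 CPM, 1.84-fold lower (adjusted p = 1.39e-07). For both genes the lowest control value lay far above the highest siRNA_ANK value. Eno3, the muscle enolase, was 25.0 ± 1.14 and 28.1 ± 2.01 CPM and did not pass (adjusted p = 0.128). Pkm, the pyruvate kinase gene of most tissues, was 1373, 1353 and 1411 CPM in the controls against 767, 694 and 875 CPM in siRNA_ANK (-0.82 ± 0.07, adjusted p = 1.06e-06), 1.77-fold lower. It had more counts than any other member in each group, and the files do not separate its alternative splice forms.

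**Figure D2:**
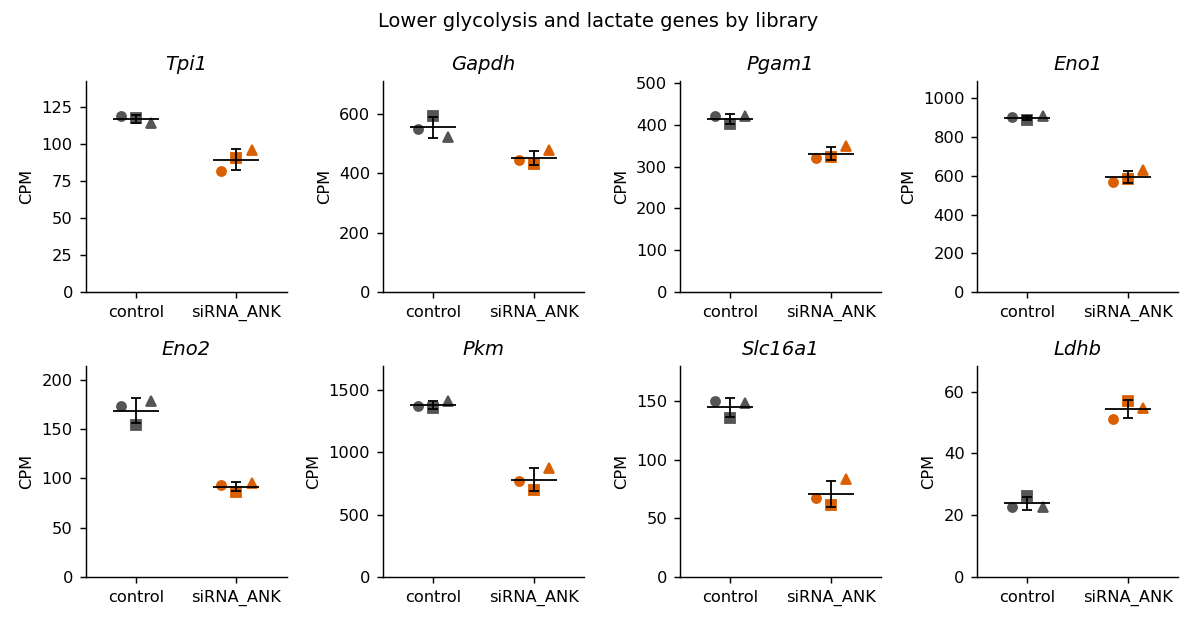
CPM in each library for 8 genes of lower glycolysis and lactate exchange, on axes that start at 0; symbols stand for replicates 1 (circle), 2 (square) and 3 (triangle), and the bar with whiskers is the mean and SD of 3 libraries. The groups do not overlap in any panel, and Ldhb is the gene shown that is higher in siRNA_ANK.

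At the entry of glucose, 1 of 3 transporter genes fell, and of the hexokinase genes 1 rose and 1 fell. Slc2a1, which encodes the basal glucose transporter of many tissues, was 89.3, 89.4 and 81.7 CPM in the controls against 61.9, 58.2 and 70.8 CPM in siRNA_ANK, 1.37-fold lower (log2 fold change -0.45 ± 0.07, adjusted p = 0.000238). Slc2a3, a high-affinity transporter, was 60.3 ± 2.61 and 63.1 ± 3.79 CPM (adjusted p = 0.475), with groups that overlap. Slc2a4, the insulin-responsive transporter of muscle and fat, held 21 to 60 counts a library and did not pass (adjusted p = 0.631). Hk2, the hexokinase typical of muscle and of proliferating cells, was 73.0, 72.3 and 74.1 CPM and 56.4, 48.3 and 54.4 CPM, 1.38-fold lower (adjusted p = 8.25e-05). Hk1, the hexokinase of most tissues, was 96.6, 106 and 106 CPM and 125, 126 and 123 CPM, 1.22-fold higher (adjusted p = 0.00113). Gpi, which turns glucose phosphate into fructose phosphate, rose 1.19-fold from 141 ± 2.27 to 168 ± 5.96 CPM (adjusted p = 0.00174). With a test against a fold of 1.2 the calls of Hk1 (adjusted p = 0.444) and Gpi (0.700) were lost.

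Phosphofructokinase, the committed step of the pathway, is served by 3 genes. Pfkm, the muscle form, was 14.95, 15.8 and 14.2 CPM in the controls against 23.8, 24.7 and 19.8 CPM in siRNA_ANK, 1.52-fold higher (log2 fold change 0.60 ± 0.10, adjusted p = 0.000302). The other two forms did not pass, with Pfkl at 55.5 ± 1.78 and 53.2 ± 3.23 CPM (adjusted p = 0.513) and Pfkp at 46.6 ± 1.63 and 43.0 ± 2.16 CPM (adjusted p = 0.197). Pfkfb enzymes make and remove the fructose bisphosphate that activates phosphofructokinase. Pfkfb3, the form with the strongest kinase activity, was 38.4, 43.6 and 46.6 CPM against 74.5, 74.3 and 70.9 CPM, 1.71-fold higher (0.77 ± 0.07, adjusted p = 1.56e-06). Pfkfb2, known from heart, rose 1.31-fold from 17.4 ± 0.146 to 22.8 ± 2.87 CPM (adjusted p = 0.00609), a call lost with a test against a fold of 1.2 (0.142). Pfkfb4 was 3.17 ± 0.613 and 2.34 ± 0.217 CPM; its groups did not overlap, but it did not pass (adjusted p = 0.144).

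Lactate genes moved in both directions. Ldhb, whose subunit predominates in heart and in tissues that use lactate, was 22.7, 26.2 and 22.6 CPM in the controls against 51.3, 57.0 and 54.7 CPM in siRNA_ANK. All siRNA_ANK values of Ldhb were well above all control values, 2.28-fold on average (log2 fold change 1.19 ± 0.08, adjusted p = 5.39e-08). Ldha, whose subunit predominates in glycolytic tissues, was 239, 251 and 234 CPM and 241, 234 and 226 CPM, with overlapping groups (-0.05 ± 0.05, adjusted p = 0.504). Slc16a1, the monocarboxylate transporter of most cells, was 150.3, 136 and 149 CPM against 67.5, 61.7 and 83.3 CPM, 2.05-fold lower (-1.03 ± 0.10, adjusted p = 1.24e-05). Slc16a3, the transporter typical of cells that export lactate, was 7.31, 7.13 and 7.43 CPM and 4.61, 5.15 and 4.68 CPM, 1.51-fold lower (adjusted p = 0.00447). Bsg, the chaperone that brings these transporters to the cell surface, was picked with its values in view and stood at 427 ± 13.6 and 478 ± 7.79 CPM; it rose (log2 fold change 0.16 ± 0.05, adjusted p = 0.0207). The gene of another such chaperone, Emb, also chosen after its values were seen, fell from 39.9 ± 3.16 to 32.8 ± 2.82 CPM (adjusted p = 0.0150).

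Of the members around pyruvate entry into mitochondria, 3 of 4 kinase genes were called, and the enzyme subunits Pdha1 and Pdhb and both carrier subunits were not. Pyruvate dehydrogenase kinases switch the complex off by phosphorylation. Pdk3, an isoform with narrow tissue distribution, was 22.2, 25.4 and 29.2 CPM in the controls against 9.41, 9.94 and 13.7 CPM in siRNA_ANK, 2.32-fold lower (log2 fold change -1.22 ± 0.14, adjusted p = 2.98e-05). Pdk2, found in most tissues, was 9.39, 9.90 and 9.93 CPM and 12.2, 12.3 and 12.3 CPM, 1.26-fold higher (adjusted p = 0.0238). Pdk4, induced by fasting in muscle, had counts of 5, 10 and 3 against 16, 12 and 24 in siRNA_ANK, and rose 2.98-fold (1.57 ± 0.48, adjusted p = 0.0168). Both of these rises were fragile. The call of Pdk2 was lost without negative control replicate 1 (adjusted p = 0.0919) or 3 (0.0535), without siRNA_ANK replicate 1 (0.0613) or 2 (0.0615), with DESeq2 (0.0696) and against a fold of 1.2 (0.334). The call of Pdk4 was lost without negative control replicate 1 (adjusted p = 0.0704) or 3 (0.0764) or siRNA_ANK replicate 3 (0.0661). Pdk1, a target of hypoxia-inducible factor, was 11.9 ± 0.895 and 10.99 ± 0.931 CPM (adjusted p = 0.449).

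The subunits of pyruvate dehydrogenase were 125 ± 2.63 and 120 ± 7.81 CPM for Pdha1 and 44.3 ± 1.25 and 47.7 ± 3.01 CPM for Pdhb (adjusted p = 0.414 and 0.256). The carrier subunit Mpc1 was 33.8 ± 1.10 and 37.5 ± 2.51 CPM, and its partner Mpc2 was 31.8 ± 1.38 and 33.2 ± 0.379 CPM (adjusted p = 0.128 and 0.530). Pgm1, which links glycolysis with glycogen, was 41.9 ± 1.44 and 40.5 ± 0.259 CPM (adjusted p = 0.610). Hif1a was 203, 198 and 210.1 CPM in the controls against 180.4, 172 and 181 CPM in siRNA_ANK, 1.14-fold lower (log2 fold change -0.19 ± 0.05, adjusted p = 0.00994). The call of Hif1a was lost without negative control replicate 3 (adjusted p = 0.0530) and in the test against a fold of 1.2. The factor is controlled largely by the stability of its protein, which these counts do not measure. The 14 members that did not pass had log2 fold changes from -0.43 to 0.17.

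Promoter windows were taken from RefSeq (build GRCr8, which differs from the build of the count files), 250 bases before to 50 after a gene's start. Windows were found for 34 of the 36 members, 38 windows in all, since 3 members have several starts; Slc2a3 and Slc2a4 had none. The letters ACGTG, the core that hypoxia-inducible factors bind, were found on either strand in 19 of the 38 windows (50%) and in 19.3% of 33469 windows of all genes. GCGTG, the other form of that core, was in 16 member windows (42.1%) and 29.7% of all; CACGTG, which contains ACGTG and is bound by MYC and related factors, was in 6 (15.8%) and 6.42%; and CCACG, which can overlap the reverse complement of ACGTG, was in 21 (55.3%) and 31.6%. Member windows were also richer in G and C, with a median of 61.5% against 51.7%, and these motifs hold CG, so the shares cannot be read apart from base composition. ACGTG stood in 5 of 9 windows of members that rose, 8 of 14 of those that fell and 5 of 12 of those that were not called; GCGTG stood in 1 of 9, 7 of 14 and 8 of 12. Windows of 6 members with large or contrasting results follow, from 5′ to 3′, with ACGTG or GCGTG on either strand in capitals; for Eno1 the first of its 2 windows is shown.
Eno1 (chr5:166002617-166002916, plus strand): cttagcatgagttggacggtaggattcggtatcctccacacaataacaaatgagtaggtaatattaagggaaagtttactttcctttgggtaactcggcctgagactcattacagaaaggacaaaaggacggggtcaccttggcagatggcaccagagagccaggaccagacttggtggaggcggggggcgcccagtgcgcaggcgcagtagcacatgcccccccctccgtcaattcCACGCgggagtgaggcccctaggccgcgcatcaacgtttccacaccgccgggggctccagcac
Pkm (chr8:68953385-68953684, plus strand): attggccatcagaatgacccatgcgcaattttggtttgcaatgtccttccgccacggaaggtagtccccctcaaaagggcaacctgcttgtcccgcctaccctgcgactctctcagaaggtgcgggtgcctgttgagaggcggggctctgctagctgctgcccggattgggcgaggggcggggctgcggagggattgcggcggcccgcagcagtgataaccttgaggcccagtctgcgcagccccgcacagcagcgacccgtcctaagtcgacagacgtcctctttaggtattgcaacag
Slc16a1 (chr2:194812410-194812709, plus strand): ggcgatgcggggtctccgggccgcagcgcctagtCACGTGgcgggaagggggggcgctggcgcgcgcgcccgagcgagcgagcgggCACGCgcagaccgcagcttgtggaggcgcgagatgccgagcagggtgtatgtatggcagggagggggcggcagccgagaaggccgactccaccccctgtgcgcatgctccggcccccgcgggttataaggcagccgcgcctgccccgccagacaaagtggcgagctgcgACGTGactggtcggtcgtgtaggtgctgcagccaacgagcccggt
Ldha (chr1:106507842-106508141, plus strand): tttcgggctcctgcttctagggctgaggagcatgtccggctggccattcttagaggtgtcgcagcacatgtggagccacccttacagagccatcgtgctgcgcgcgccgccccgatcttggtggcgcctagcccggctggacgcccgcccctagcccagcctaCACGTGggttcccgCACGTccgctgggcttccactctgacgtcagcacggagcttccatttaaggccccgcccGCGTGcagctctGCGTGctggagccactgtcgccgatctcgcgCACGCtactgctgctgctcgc
Ldhb (chr4:177177359-177177658, minus strand): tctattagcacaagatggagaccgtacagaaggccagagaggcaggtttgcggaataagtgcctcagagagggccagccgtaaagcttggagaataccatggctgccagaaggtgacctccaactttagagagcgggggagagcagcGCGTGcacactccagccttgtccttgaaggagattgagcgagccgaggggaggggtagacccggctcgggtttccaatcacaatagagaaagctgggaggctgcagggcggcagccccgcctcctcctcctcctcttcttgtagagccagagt
Pfkfb3 (chr17:71944683-71944982, plus strand): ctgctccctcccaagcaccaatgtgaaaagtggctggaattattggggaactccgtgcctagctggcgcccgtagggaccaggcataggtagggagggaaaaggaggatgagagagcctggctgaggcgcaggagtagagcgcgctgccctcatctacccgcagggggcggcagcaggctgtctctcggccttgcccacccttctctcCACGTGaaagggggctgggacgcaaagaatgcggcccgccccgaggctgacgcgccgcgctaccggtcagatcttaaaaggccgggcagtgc
The windows show 5 capital stretches for Ldha, 3 for Slc16a1 and 1 each for Eno1, Ldhb and Pfkfb3, while that of Pkm has none. CACGTG, which reads the same on both strands, is 1 stretch. The second Eno1 window, not printed here, has 2 stretches, 1 with GCGTG and 1 with ACGTG, each on the opposite strand. A match is a description of these letters, and binding was not measured.

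The share of each isoform in its family was computed per library from CPM per kilobase, as a description; the shares were not tested. Hk1 made up 42.1% ± 1.25 (SD, n = 3) of hexokinase in the controls and 55.0% ± 2.16 in siRNA_ANK. Without division by gene length, Hk1 was the larger in both groups, at 58.4% ± 1.26 and 70.2% ± 1.81 of the summed CPM. Ldhb made up 16.1% ± 0.700 and 31.3% ± 1.63 of lactate dehydrogenase, with Ldha remaining the larger part. Among the glucose transporters Slc2a1 had 67.1% ± 1.44 and 58.9% ± 1.55, and Slc2a3 had 31.4% ± 1.09 and 39.4% ± 1.55. In each of these families the shares of the groups did not overlap, except for Slc2a4.

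Pfkm held 9.69% ± 0.440 of phosphofructokinase in the controls and 14.7% ± 0.978 in siRNA_ANK, and Pfkl and Pfkp remained the main forms. Pfkfb3 held 62.3% ± 1.05 and 71.4% ± 1.52 of its family, while Pfkfb4 held 11.7% ± 1.32 and 5.84% ± 0.554. Among the pyruvate dehydrogenase kinases Pdk3 led in the controls with 46.5% ± 4.11, before Pdk1 with 34.7% ± 3.86 and Pdk2 with 18.3% ± 0.663; in siRNA_ANK Pdk1 led with 41.8% ± 2.22, before Pdk2 with 30.3% ± 2.62 and Pdk3 with 26.1% ± 3.37. The order in siRNA_ANK depends on the library and the scale: in replicate 3 Pdk3 (29.8%) stood above Pdk2 (27.4%), and by CPM without gene length Pdk2 led with 34.9% ± 3.21, before Pdk1 with 31.2% ± 1.99 and Pdk3 with 31.0% ± 3.67. In the enolases Eno1 was 84.2% ± 0.622 and 84.9% ± 0.853, with overlapping groups, while Eno2 was 13.6% ± 0.763 and 11.3% ± 0.489 and Eno3 2.26% ± 0.145 and 3.87% ± 0.385, with groups apart. Slc16a1 was 98.0% ± 0.0776 and 97.3% ± 0.511 of the lactate transporters and Pgam1 98.7% ± 0.165 and 99.2% ± 0.215 of the mutases.

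**Figure D3:**
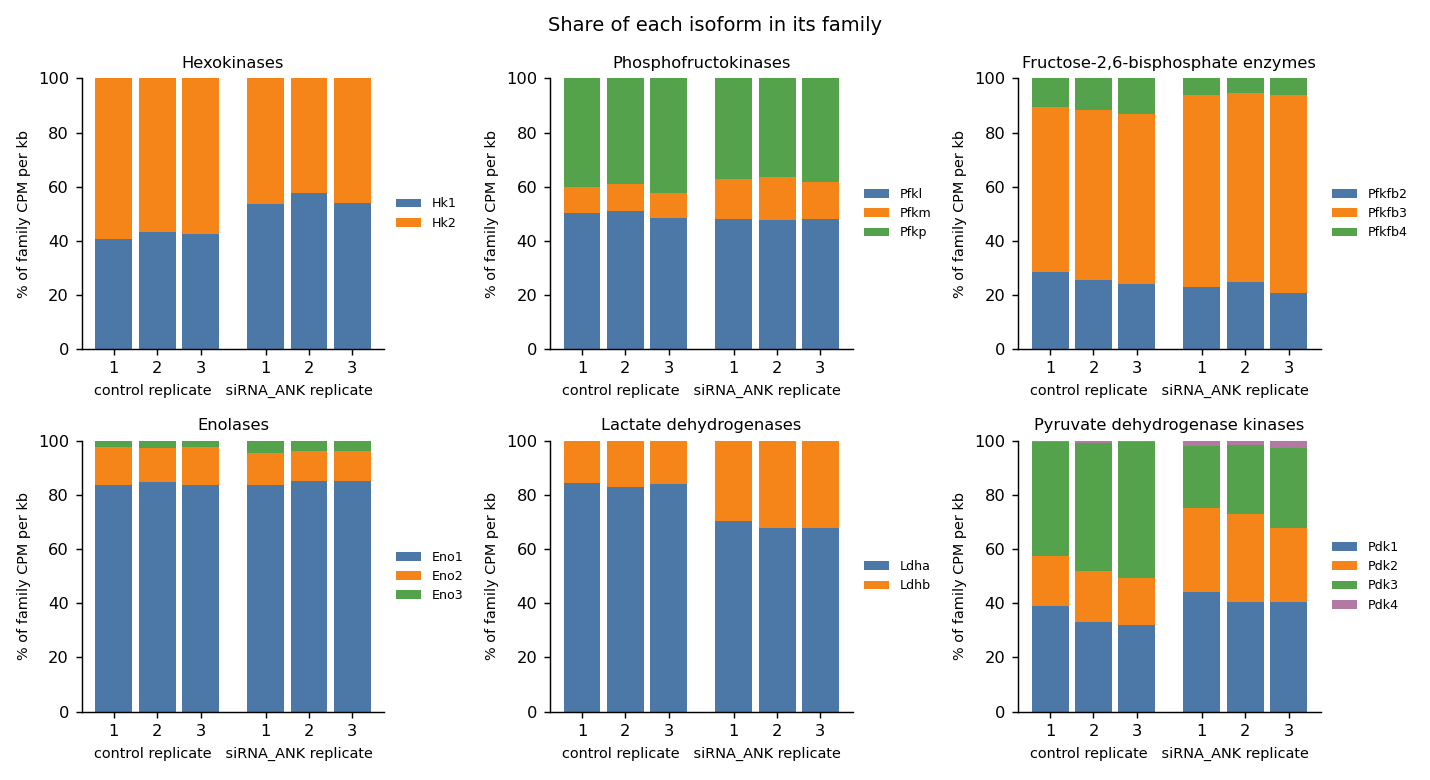
Share of each isoform in the summed CPM per kilobase of its family, in percent, for 6 families; each bar is a library, with negative control replicates 1 to 3 on the left and siRNA_ANK replicates 1 to 3 on the right of each panel. On this scale Hk1 is below Hk2 in the controls and above it in siRNA_ANK, Ldhb takes a larger part of lactate dehydrogenase, and Pdk3 takes a smaller part of the kinases in siRNA_ANK.

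Per kilobase of gene length, Eno1 (388 ± 4.58 CPM per kilobase), Pkm (380 ± 8.16), Pgam1 (240.1 ± 6.48) and Gapdh (160 ± 10.2) led the members in the controls, and the same 4 genes led in siRNA_ANK at 257 ± 13.3, 214 ± 25.1, 192 ± 9.14 and 130.1 ± 6.74. Eno1 and Pkm did not differ beyond their spread in the controls. Of the 10 members with the highest level per kilobase in the controls, 8 fell, 1 rose (Gpi) and 1 was not called (Ldha), where 41.1% of the 1342 genes at or above that level fell; of the other 26, 5 fell and 7 rose. Ldhb moved from rank 17 to rank 9 among the members and Slc16a1 from rank 10 to rank 15. The members together took 0.520% to 0.531% of a control library and 0.369% to 0.405% of a siRNA_ANK library. Their summed level was 1856 to 1873 CPM per kilobase in the controls and 1394, 1418 and 1507 in siRNA_ANK. These sums weigh abundant genes most. Pkm (1379 to 779 CPM) and Eno1 (899 to 594 CPM) had the largest falls in CPM, while the median log2 fold change of the members was -0.07.

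**Figure D4:**
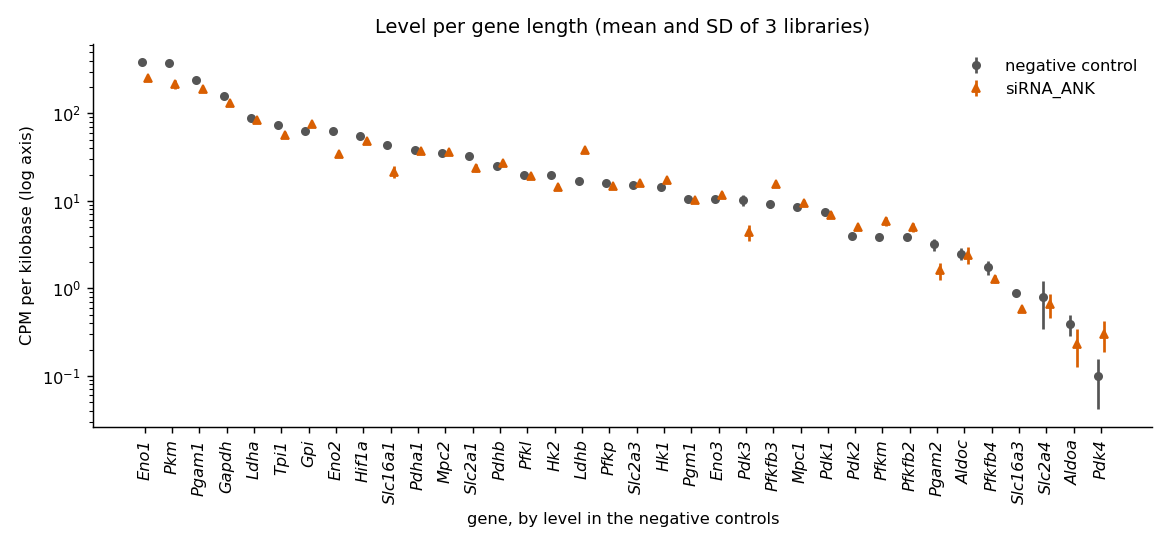
Level of each of the 36 members in CPM per kilobase on a log axis, ordered by the mean of the negative controls; points are means of 3 libraries a group and bars their SD. Of the 10 genes furthest left, led by Eno1 at 388, 8 fell in siRNA_ANK, Gpi rose and Ldha was not called. Further right, Ldhb and Pfkfb3 lie higher in siRNA_ANK.

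Some members could not be measured well. Aldoa, the main aldolase of muscle and most other tissues, held 3 to 15 counts a library and was not tested. Another 4 rows described as the same protein held 222 counts in all. A row without a symbol overlaps Aldoa on the same strand and held 22 counts in all. The counts therefore do not give the level of Aldoa, and no aldolase share is drawn. Aldoc, the brain aldolase, was 4.10 ± 0.632 and 3.99 ± 0.872 CPM (adjusted p = 0.897). The row ENSRNOG00000058249 on the X chromosome carries no symbol, but the files describe it as phosphoglycerate kinase 1, which stands between Gapdh and Pgam1; outside the list, it was 249 ± 8.68 CPM and fell to 212 ± 2.29 CPM (log2 fold change -0.23 ± 0.05, adjusted p = 0.00275). Another row without a symbol, ENSRNOG00000000165, is described as the Pfkfb1 enzyme; it was 0.883 ± 0.223 and 0.832 ± 0.0699 CPM and did not pass (adjusted p = 0.882). Reads of near-identical copies can be split or dropped in counting. The files list 47 other rows described as the Gapdh protein, 12 as the Eno1 protein and 9 as the Pkm protein, with 3.67%, 1.85% and 5.27% of the counts of each family. With the counts of those rows added, the controls were 1.23-fold, 1.52-fold and 1.77-fold above siRNA_ANK for Gapdh, Eno1 and Pkm.

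Strand was not given for the counting, and some members overlap a gene on the other strand. Slc16a3 overlaps Csnk1d, which was 151 ± 6.94 and 140 ± 4.01 CPM (adjusted p = 0.120), and Ldha overlaps Tsg101, which was 101 ± 2.97 and 91.5 ± 5.05 CPM (adjusted p = 0.0789). Eno3 overlaps the more abundant Pfn1, at 538 ± 16.3 and 549 ± 8.01 CPM, and Pgam1 overlaps Exosc1, at 27.9 ± 2.74 and 27.8 ± 1.57 CPM (adjusted p = 0.678 and 0.941). Per the files' coordinates on build mRatBN7.2, 7 of the 36 members lie on chromosome 4, and Eno2, Tpi1 and Gapdh stand within 394 kb of each other (157572088 to 157966235), all on the minus strand. That span was picked with its values in view and holds 17 tested genes, of which 7 fell and 3 rose. The 7 include Eno2, Tpi1 and Gapdh, which define the span. Over all genes tested, 20.2% fell and 19.9% rose. Eno1 lies on chromosome 5 (160719951 to 160731336), Pkm on chromosome 8 (60057402 to 60079599), Ldhb on chromosome 4 (175428385 to 175446403) and Slc16a1 on chromosome 2 (192124289 to 192144611).

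The siRNA_ANK libraries differed among themselves in how far the members moved. Replicate 3 had the highest Ankh level of the group (120 CPM), and for 15 of the 21 called members (71.4%) it was the siRNA_ANK library nearest to the control mean, as it was for 60.5% of all called genes. It was nearest for Pkm, Eno1, Eno2 and Slc16a1, but not for Hk2, Pgam2, Ldhb, Slc16a3, Pdk2 or Pdk4. Among the controls, replicate 2 was nearest to the siRNA_ANK mean for 12 of the 21, and for 56.2% of all called genes. Without both of these libraries, 21 of the 21 called members were again called in the same direction. They were picked for lying nearest to the other group, so leaving them out tends to widen the difference. That fit therefore does not show how stable the calls are. Leaving out negative control replicate 1 or 3 alone kept 18 of the 21.

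The smooth muscle label was checked with 8 markers, all of which rose, with a summed level of 4325 to 5801 CPM in the controls against 7817 to 9340 CPM in siRNA_ANK; Acta2 and Cald1 were the most abundant. In bulk RNA, a change in the number of cells of a type and a change in RNA per cell cannot be told apart. Of the 6 fibroblast markers, 5 rose, with sums of 118 to 127 and 192 to 203 CPM. Marker counts stand beside 19.9% of all genes tested that rose and 20.2% that fell. Several members are known as isoforms of skeletal muscle (Pfkm, Pgam2, Eno3, Slc2a4) or neurons (Eno2, Aldoc, Slc2a3). The 16 skeletal muscle markers summed to 8.30 to 9.95 CPM in the controls against 43.6 to 55.5 CPM in siRNA_ANK, mostly from Myh3 and Acta1, which rose; Tnnt3 stood at 2.68 ± 0.682 and 2.296 ± 0.152 CPM and did not pass (adjusted p = 0.510), and Myod1, Myog, Myf5, Myf6, Tnni1 and Tnni2 had 0 counts in every library. The 10 neuronal markers summed to 35.9 to 43.6 and 118 to 143 CPM, mostly from Map2, which rose. Tubb3, at 9.80 ± 1.41 and 7.34 ± 1.64 CPM, and Stmn2, at 4.77 ± 0.771 and 5.30 ± 0.837 CPM, did not pass (adjusted p = 0.0612 and 0.545). Snap25, Nefl and Chga had 0 counts. Endothelial markers summed to 5.18 to 6.96 and 17.1 to 21.8 CPM, mostly from Erg, which rose, with Cdh5 and Kdr at 0. Macrophage markers summed to 24.8 to 28.0 and 11.2 to 14.9 CPM, mostly from Cd14, which fell, with Ptprc and Adgre1 at 0. Of 4 proliferation markers, Cdk1 fell from 15.9 ± 2.29 to 12.003 ± 0.974 CPM and Mki67, Top2a and Ccnb1 did not pass. The part of any of these in the members' results was not tested.

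The pathways that branch from glycolysis were described with 10 further lists. Beside 40.1% of all genes, the share of tested genes called was 37.5% for subunits and regulators of hypoxia-inducible factors, 44.4% for the rest of the pyruvate dehydrogenase complex, 47.4% for the tricarboxylic acid cycle, 55.6% for further relatives of the members and 57.1% for other regulators, each from 8 to 19 genes. It was 75% for the shuttles, glycogen and the serine and hexosamine branches, and 85.7% for the pentose phosphate pathway. In the pentose phosphate pathway, which makes NADPH and ribose from glucose phosphate, 5 of 7 tested genes fell and 1 rose. Taldo1, transaldolase, fell from 90.9 ± 4.99 to 69.3 ± 4.16 CPM, Pgd from 298 ± 11.8 to 250.2 ± 3.75 CPM and H6pd from 56.0 ± 2.22 to 46.3 ± 3.27 CPM (adjusted p = 0.000247, 0.00173 and 0.00640). Of the 8 tested genes of the shuttles that carry the electrons of cytosolic NADH into mitochondria, 5 fell and 1 rose. Mdh1, the cytosolic malate dehydrogenase, was 180.4 ± 13.0 CPM and fell to 104 ± 10.8 CPM (log2 fold change -0.80 ± 0.08, adjusted p = 2.37e-06), and the aspartate aminotransferases Got2 and Got1 fell from 158 ± 15.4 to 105 ± 2.004 and from 82.4 ± 4.56 to 66.8 ± 5.21 CPM. In the tricarboxylic acid cycle, which oxidises acetyl-CoA, 8 of 19 fell and 1 rose; Idh2, Cs and Suclg1 fell (log2 fold changes -0.42, -0.29 and -0.42; adjusted p = 4.14e-05, 0.000380 and 0.00124).

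In the serine and hexosamine branches 7 of 12 fell and 2 rose. Of the serine genes, Psph fell with overlapping groups (adjusted p = 0.0424) and Shmt1 rose (adjusted p = 0.0202). Phgdh, Psat1 and Shmt2 did not pass (adjusted p = 0.0573, 0.380 and 0.526). The other falls were among the hexosamine and GlcNAc genes, where Ogt rose. The genes of the list with the smallest p all fell. Oga, which removes GlcNAc from proteins, fell from 117 ± 4.45 to 63.4 ± 7.11 CPM (adjusted p = 4.44e-07), Gfpt2, an entry enzyme of the hexosamine pathway, from 8.59 ± 0.469 to 4.05 ± 0.389 CPM, and Uap1 from 69.3 ± 2.57 to 36.5 ± 7.41 CPM. Glycogen genes moved both ways, with 5 of 12 higher and 4 lower. The phosphorylase gene Pygb rose from 57.0 ± 0.887 to 75.2 ± 3.02 CPM and Phkb, a phosphorylase kinase subunit, from 24.9 ± 1.26 to 35.0 ± 1.99 CPM, while Gaa, the lysosomal glucosidase, fell from 318 ± 12.1 to 263 ± 4.49 CPM. Around the pyruvate dehydrogenase complex, 3 of 9 rose and 1 fell. Pdp1, a phosphatase that reverses the action of the kinases, rose from 13.4 ± 0.386 to 17.7 ± 0.207 CPM and Pdpr, a regulatory subunit of that phosphatase, from 28.1 ± 1.40 to 38.5 ± 3.09 CPM (adjusted p = 0.00323 and 0.000435), and Dld, shared with other dehydrogenase complexes, fell from 239 ± 1.75 to 198 ± 27.8 CPM. Of 18 tested further relatives of the members, 4 rose and 6 fell, among them the transporters Slc2a6, which fell, and Slc2a13, which rose, and the phosphomutase gene Pgm2, which fell (adjusted p = 0.00336, 0.00687 and 0.00630).

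Both hypoxia lists held genes that rose and genes that fell, and the activity of the factors was not tested. Of 20 tested targets of hypoxia-inducible factors outside glycolysis, 8 rose and 8 fell (80%, beside 40.1% of all genes), with a median log2 fold change of -0.05. Lox, a collagen and elastin crosslinking enzyme, rose from 551 ± 19.4 to 1009 ± 76.2 CPM, Tfrc, the transferrin receptor, from 59.7 ± 5.49 to 106 ± 6.91 CPM, and Ndrg1 from 6.42 ± 1.21 to 19.9 ± 3.12 CPM (adjusted p = 8.11e-08, 8.27e-07 and 1.36e-06). Among 8 tested subunits and regulators, 2 rose and 1 fell. Egln3, a prolyl hydroxylase that marks the factor for degradation, was 1.18 ± 0.403 CPM and rose to 10.6 ± 0.697 CPM, a log2 fold change of 3.15 ± 0.21 (adjusted p = 4.22e-08), the subunit gene Arnt2 rose (0.70 ± 0.19, adjusted p = 0.00800), and Epas1, which encodes another oxygen-sensitive subunit, fell from 26.9 ± 1.15 to 21.1 ± 1.46 CPM (adjusted p = 0.00438). Of 14 tested further regulators of glycolytic genes, 4 rose and 4 fell. Foxk2, a forkhead factor known in mouse to raise glycolytic genes, fell from 204 ± 13.4 to 137 ± 6.87 CPM, Foxo1 rose from 17.9 ± 1.78 to 28.6 ± 2.92 CPM, and Mlx, a partner of glucose-sensing factors, fell from 64.9 ± 2.12 to 48.9 ± 3.36 CPM (adjusted p = 6.22e-06, 0.000104 and 0.000243).

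**Figure D5:**
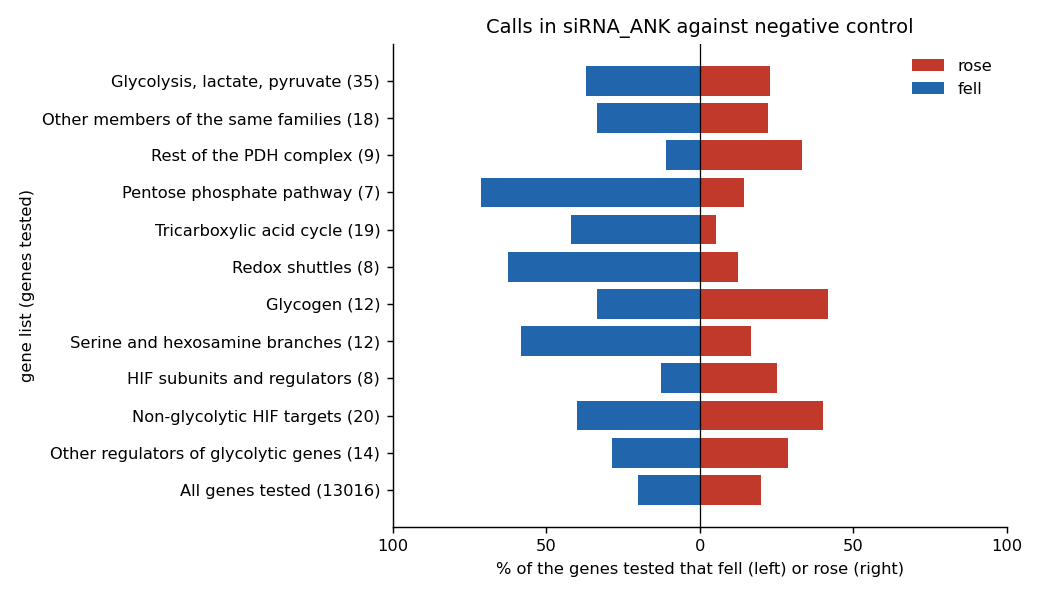
Percent of the tested genes of each list that fell (left, blue) or rose (right, red) in siRNA_ANK at an adjusted p under 0.05, with the number tested in brackets and all 13016 genes as the lowest bar. Glycogen genes and non-glycolytic targets of hypoxia-inducible factors have similar bars on both sides, and the pentose phosphate and redox shuttle lists lie mostly on the left.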

How the data were processed

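Total RNA of 6 libraries was measured, and the authors deposited whole-number counts per gene, 1 file a library, with no normalization. The submitters' processing notes name build mRatBN7.2, DESeq2 and the counter featureCounts (1.5.0-p3); aligner, strand setting and treatment of reads with several matches were not given in the sources. Gene lengths (other values) are as deposited by the authors. The precision follows from 15641259 to 17441548 counts a library, which makes a single count worth 0.0562 to 0.0633 CPM.

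The analysis used R 4.3.3 and edgeR 4.0.16: filterByExpr (minimum count 10, minimum total 15), TMM factors, and a two-sided quasi-likelihood test with robust dispersions, the group as its single term and Benjamini-Hochberg adjustment over 13016 genes. The SE is the size of the log2 fold change over the square root of F. The members and lists were chosen with earlier results of these data known. All members are described. From each further list up to 3 called genes with the smallest adjusted p are named, with Bsg, Emb, Ogt and the serine genes added. Of the 151 symbols in the further lists, 142 matched a row and 127 were tested. Alternatives were DESeq2 1.42.0, limma-voom (limma 3.58.1), 2 other scalings, 2 other filters, libraries left out, the replicate number as a block, and a 1.2-fold null in the test. The fit was tested on simulated counts with changes of 1.5-fold, 2-fold and 4-fold, of which 80%, 94% and 100% were recovered. Smaller changes were not simulated, and far fewer genes were changed than were called here. Every simulated gene had the same dispersion. The simulation therefore does not cover smaller changes, as many changed genes, or a spread that differs by gene. No 2 replicates held identical values, and the chi-square of their counts per degree of freedom was 2.83 to 12.3.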

Additional observations from a re-analysis of the deposited data

How the results depend on the processing

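The 21 calls among members were kept, in the same direction, with limma-voom, DESeq2's size factors, TMM without the 20 most abundant genes, no filter beyond 1 count, and without negative control replicate 2, alone or with siRNA_ANK replicate 3. DESeq2 kept 20. A filter at a mean of 5 CPM left 5 members untested and kept 19 calls. Against a fold of 1.2, 13 were kept: members higher fell from 8 to 4, all genes higher from 2594 to 1335 and lower from 2629 to 1142, and genes of the further lists to 14 higher and 15 lower; this test asks for a larger change. Leaving out 1 library at a time kept 18 to 21 calls. Some members that were not called changed sign: over the settings that leave out libraries, log2 fold changes ran from -0.23 to 0.145 for Aldoc, -0.51 to 0.336 for Slc2a4, -0.10 to 0.00295 for Pfkl and -0.0746 to 0.00139 for Ldha. The difference in the Slc2a4 share ran from -0.277 to 0.533 percentage points. The cause was not tested. Low counts limit Pdk4, Pgam2, Slc2a4 and Aldoa.

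The replicate numbers are shared by the groups, but same-numbered libraries deviated together with correlations of -0.0306, 0.0835 and 0.0491, so the numbers were not taken as a pairing. With the replicate number as a block, 21 of the 21 calls were kept (8 members higher, 13 lower), and 2578 genes were higher and 2631 lower.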
